A study of Mus musculus with 7 samples.

Results

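The genes described here are 10 genes of the blood vessel wall and of its growth signals. They are the ligand Vegfa with its receptors Kdr and Flt1, the ligand Apln with its receptor Aplnr, the ligands Angpt1 and Angpt2 with their receptor Tek, and the junction proteins Cdh5 and Pecam1. They were taken by symbol from 19938 genes that had a row of their own on the array. Each was represented by 1 row, and all 10 passed the filter on low intensity, as did 12102 genes in all. That filter kept a gene whose intensity reached the array's median on at least 1 array. Angpt1 passed through d10 alone and Angpt2 through d1 alone, so their highest day is tied to the filter, whereas the other 8 genes lay above the median on all 7 arrays.

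The muscle was the left plantaris, a calf muscle, of male C57BL/6J mice aged 5 months. All animals had spent 2 weeks in hind limb suspension, which takes the weight off the hind legs. The control group, d0, was taken at the end of suspension, and the 6 other groups 1, 3, 5, 7, 10 and 14 days later, during regrowth. Each group was 1 Affymetrix Mouse Gene 1.0 ST array of RNA pooled from 6 animals. No unsuspended muscle is among the samples, so d0 is a suspended muscle and not a resting one. There are no replicates, and a difference between 2 days carries no error.

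Endothelial cells line the capillaries that run along muscle fibres. VEGF-A, made by muscle fibres and other cells, acts on endothelium mainly through the receptor tyrosine kinase VEGFR2 (Kdr), while VEGFR1 (Flt1) binds the ligand tightly and can act as a decoy. Apelin is a secreted peptide that signals through a G protein-coupled receptor (Aplnr) and is made by endothelial tip cells, among others. Angiopoietin-1 activates the receptor Tie2 (Tek) and steadies vessels, and angiopoietin-2 often opposes it. VE-cadherin (Cdh5) and PECAM-1 hold endothelial cells together, and PECAM-1 is also found on leukocytes and platelets.

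The start regions of 4 of these genes are shown because Kdr and Apln had the largest ratios at d1, and Flt1 and Tek, which are also endothelial receptors, had smaller ones. Each run is the 250 bases before the annotated start on the gene's strand, from RefSeq on GRCm38.p6. Capitals mark the letters GGAAG or, on the other strand, CTTCC, a common form of the core that ETS factors of endothelium bind.
Kdr (chr5:75978456-75978705, minus strand): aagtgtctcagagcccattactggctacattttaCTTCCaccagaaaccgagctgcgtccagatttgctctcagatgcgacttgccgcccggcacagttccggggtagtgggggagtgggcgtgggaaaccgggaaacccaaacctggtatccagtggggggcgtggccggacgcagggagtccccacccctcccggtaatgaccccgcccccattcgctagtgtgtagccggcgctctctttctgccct
Flt1 (chr5:147726012-147726261, minus strand): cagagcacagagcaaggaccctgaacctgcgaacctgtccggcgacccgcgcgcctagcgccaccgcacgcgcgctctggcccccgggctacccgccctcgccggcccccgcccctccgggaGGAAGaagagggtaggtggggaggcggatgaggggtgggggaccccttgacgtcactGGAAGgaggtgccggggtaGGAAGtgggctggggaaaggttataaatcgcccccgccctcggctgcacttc
Apln (chrX:48034854-48035103, minus strand): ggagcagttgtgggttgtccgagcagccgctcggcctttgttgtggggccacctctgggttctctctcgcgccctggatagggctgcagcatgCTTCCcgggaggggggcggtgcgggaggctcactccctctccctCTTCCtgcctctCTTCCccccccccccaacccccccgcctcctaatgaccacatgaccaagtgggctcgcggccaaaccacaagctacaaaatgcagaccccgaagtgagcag
Tek (chr4:94739039-94739288, plus strand): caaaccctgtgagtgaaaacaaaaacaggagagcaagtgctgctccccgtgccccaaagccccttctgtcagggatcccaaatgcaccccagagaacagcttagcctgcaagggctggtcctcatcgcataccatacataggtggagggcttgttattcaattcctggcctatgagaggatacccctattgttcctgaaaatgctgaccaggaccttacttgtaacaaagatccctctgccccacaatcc
The letters occurred 1 time before Kdr, 3 times before Flt1, 3 times before Apln and 0 times before Tek. Of 32851 such windows, 64.1% held them, so their presence is common. Other forms of the core were not counted. RefSeq windows were matched for 5 of the 10 genes (Vegfa is the fifth).

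Intensities are on a linear scale, as the authors deposited them, and ratios are log2 ratios to d0. A gene is called higher or lower here when it differs by at least 1.5-fold (0.58 on the log2 scale) between 2 arrays, which is a size and not a test. The median intensity of an array lay between 128.1 and 131.8. The muscle genes Acta1, Ckm and Myh4 were at least 109 times the median on every array, which matches the labelled tissue. The d0 array was the lowest of the 7 for 39.0% of the 12102 genes, and the median gene lay 0.05 to 0.10 above d0 on the later days. A low d0 array and a low level in the suspended muscle cannot be told apart. All ratios to d0 share this array, so the 6 days are not independent of each other. In whole muscle RNA, fewer cells of a type and less RNA per cell cannot be told apart either.

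Set against d0, Kdr, Apln and Aplnr were higher by 1.5-fold on 1 or more later days, and 0 of the 10 genes were lower. Over all kept genes 6.24% were higher on at least 1 later day and 1.70% lower. By day, the share of genes that were lower ran from 0.694% (d14) to 1.02% (d1), with 0.802% (d5), 0.826% (d10), 0.843% (d3) and 0.859% (d7) between. Kdr was past 1.5-fold at d1 and from d5 on, Apln at d1 alone, and Aplnr from d3 to d7. Vegfa, Cdh5 and Pecam1 were above d0 on all 6 days by amounts under 1.5-fold, Flt1 by less, and Tek, Angpt1 and Angpt2 stayed close to d0 on most days.

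**Figure D1:**
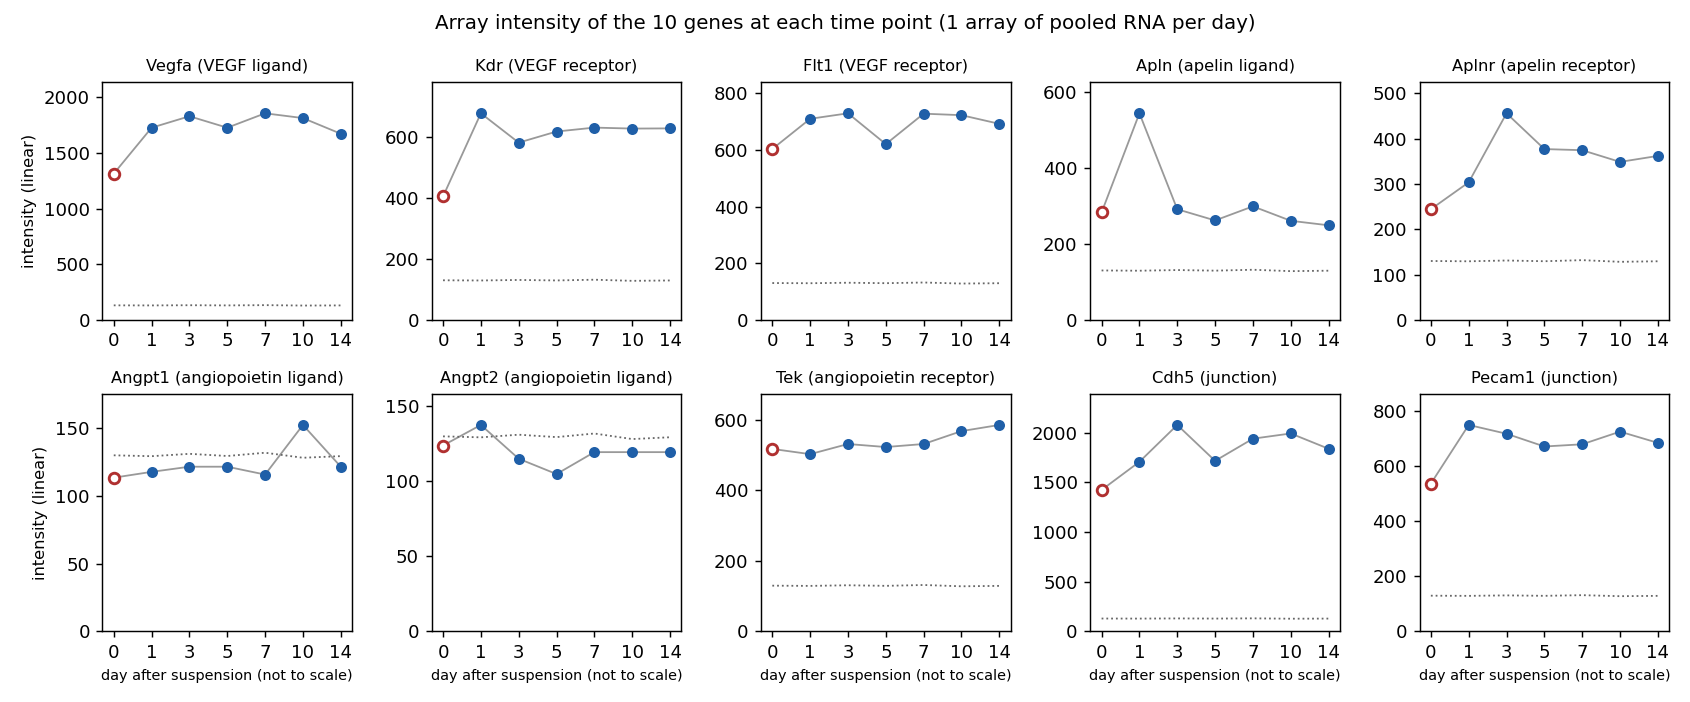
Intensity (linear scale, from 0) of the 10 genes on the 7 arrays, with d0 as an open red circle, later days as blue points and the array median as a dotted line; each point is 1 array of RNA pooled from 6 animals. Apln stands at 543.7 at d1 and between 248.8 and 298.7 on the other days, while Kdr goes from 405.4 at d0 to between 582.5 and 678.9 afterwards.

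Among the VEGF genes the receptor Kdr differed most. Its intensity was 405.4 at d0, then 678.9 (d1), 582.5 (d3), 619 (d5), 631.9 (d7), 628.7 (d10) and 629.3 (d14). The d0 array was thus alone at the low end, and the 6 later arrays lay within 0.22 of each other on the log2 scale. The d1 ratio was 0.74 (1.67-fold), and those of d5, d7, d10 and d14 were 0.61, 0.64, 0.63 and 0.63, past 1.5-fold, with d3 at 0.52. Among all kept genes 2.28% were at least 1.5-fold higher at d10 and 0.678% at d14. After quantile normalization the d10 ratio was 0.56, under the threshold. The gap of 0.52 between d0 and the nearest later day was matched or exceeded by 49 of the 12102 genes, Kdr included (0.405%).

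Vegfa stood at 1313.8 at d0, then 1726.9 (d1), 1830 (d3), 1726.9 (d5), 1856.4 (d7), 1813.5 (d10) and 1672.7 (d14). Again d0 was the lowest array, with a gap of 0.35 to the next, and the later days lay within 0.15 of each other. The ratios ran from 0.35 at d14 to 0.50 at d7, so at most 1.41-fold. A gap to d0 at least as large as that of Vegfa was found in 2.12% of genes.

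Flt1, the second VEGF receptor, was at 603.6 at d0, then 710.4 (d1), 729.8 (d3), 620.9 (d5), 728.5 (d7), 723.2 (d10) and 692.6 (d14). The d5 array lay near d0 (ratio 0.04), and the ratios of the other later days were between 0.20 and 0.27. Kdr showed no such dip at d5. No test of the difference between Kdr and Flt1 was made.

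The apelin pair had the widest ranges of the 10 genes, at different days. Apln, the ligand, was at 282.6 at d0, then 543.7 (d1), 291.1 (d3), 261.6 (d5), 298.7 (d7), 260.7 (d10) and 248.8 (d14). The d1 array stood alone at 1.92-fold above d0 (0.94), and the ratios from d3 to d14 were between -0.18 and 0.08. At d1, 3.45% of genes were at least 1.5-fold higher and 1.02% lower, and Apln ranked 90 among the 12102 ratios. Its d1 value exceeded the highest of the other 6 arrays by 0.86, a margin reached by 26 genes (0.215%). Set against d14 in place of d0, it was higher by 1.13 (2.19-fold) at d1, so the difference was as large with the d0 array left out.

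Aplnr, the receptor, was at 244.3 at d0, then 303.7 (d1), 456.2 (d3), 377.2 (d5), 374.7 (d7), 348.8 (d10) and 362.1 (d14). Its highest array was d3, 2 days later than that of its ligand, and its lowest was d0. The d3 ratio was 0.90 (1.87-fold), d5 and d7 stood at 0.63 and 0.62, and d1, d10 and d14 at 0.31, 0.51 and 0.57. At least 1.5-fold higher were 1.65% of genes at d3, 1.36% at d5 and 1.74% at d7. The d3 value lay 0.27 above the next array, a margin reached by 14 genes, Aplnr included (0.116%). Against d14 the d3 ratio was 0.33, under the threshold, and d1 lay at -0.25.

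In the angiopoietin group the receptor Tek varied least of the 10 genes. It was at 518 at d0, then 503.1 (d1), 531.9 (d3), 523.3 (d5), 531.9 (d7), 568.5 (d10) and 586 (d14). The whole range was 0.22 on the log2 scale, and 25.6% of genes had a smaller one. The highest arrays were d14 and d10.

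Angpt1 was at 113.4 at d0, then 117.7 (d1), 121.5 (d3), 121.5 (d5), 115.7 (d7), 152.3 (d10) and 121.5 (d14). It was above the array median at d10 only, where the ratio to d0 was 0.43. Angpt2 was at 123.8 at d0, 137.5 at d1, 115 at d3, 104.8 at d5 and 119.4 at d7, d10 and d14, with a highest ratio of 0.15 at d1. Both genes are dim, below the median on 6 of 7 arrays, and whether they stood above background was not measured here. The same printed value on several arrays is common in this table: 53.7% of its rows repeat a value on at least 2 arrays.

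Of the junction genes, Cdh5 stood at 1423.9 at d0, then 1707.3 (d1), 2078.3 (d3), 1716.8 (d5), 1940.1 (d7), 1992.5 (d10) and 1838.6 (d14). Its ratios were 0.26 (d1), 0.55 (d3), 0.27 (d5), 0.45 (d7), 0.48 (d10) and 0.37 (d14). The d3 array was highest, as in Flt1, and d1 and d5 were the lowest of the later days. Pecam1 was at 537.1 at d0, then 750.3 (d1), 718.3 (d3), 672 (d5), 680 (d7), 726 (d10) and 685.2 (d14). Its ratios lay between 0.32 and 0.48, and d0 was lower than every later array.

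**Figure D2:**
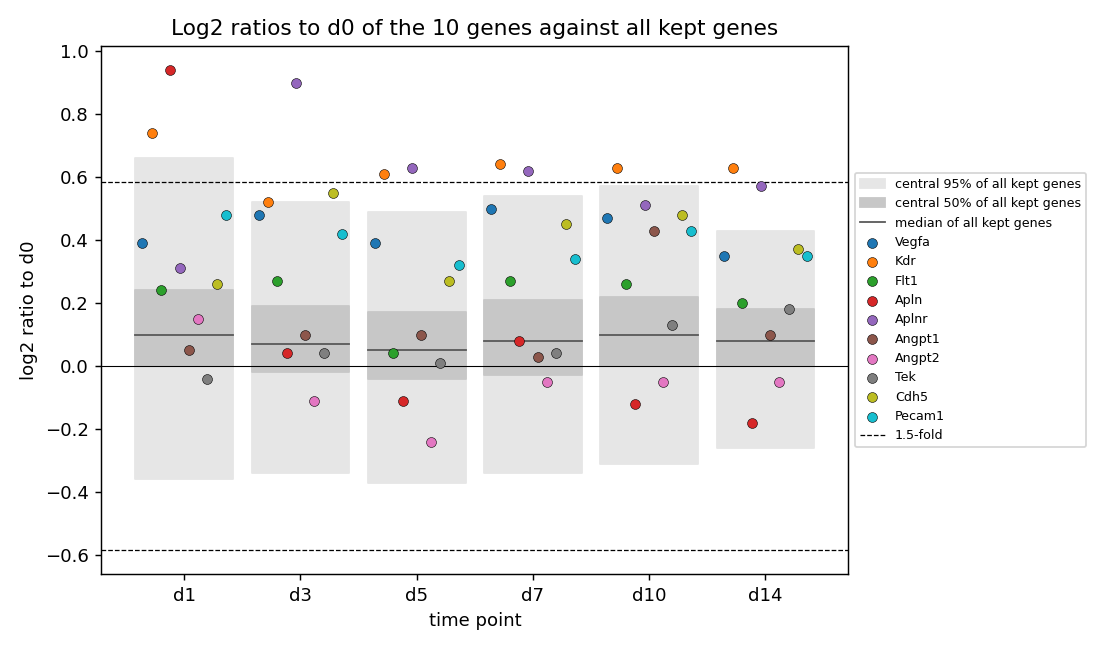
Log2 ratio to d0 of the 10 genes (coloured points) at each later day, over the central 95% (light grey) and 50% (dark grey) of the 12102 kept genes; dashed lines mark 1.5-fold. Kdr lies above the light band at d1, d5, d7, d10 and d14 and on its edge at d3, Apln above it at d1 and Aplnr above it at d3, d5, d7 and d14, with Cdh5 (0.55) just above it at d3.

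The d0 array was the lowest of the 7 for 7 of the 10 genes (Vegfa, Kdr, Flt1, Aplnr, Angpt1, Cdh5 and Pecam1) and the highest for 0 of them, beside 39.0% and 7.68% of all kept genes. The median ratio of the 10 genes was 0.29 (d1), 0.35 (d3), 0.18 (d5), 0.31 (d7), 0.43 (d10) and 0.27 (d14). Over all kept genes the median was 0.10, 0.07, 0.05, 0.08, 0.10 and 0.08. Set against d14, the medians of the 10 genes were 0.04, 0.07, -0.03, 0.03 and 0.06 from d1 to d10, and d0 was at -0.27. Of the 8 genes above the array median throughout, d0 was lowest for 6. Most of the difference lay between d0 and the reloaded days, and of the 10 genes only Apln, at d1, differed from d14 by 1.5-fold on a reloaded day, as 2.42% (higher) and 0.727% (lower) of all kept genes did on at least 1 of them.

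A slope over time was tested for every gene with limma, on log2(day + 1). Over d0 to d14, 0 of the 10 genes and 0 of 12102 genes passed a limma adjusted p of 0.05. At an unadjusted p of 0.05, 2 of the 10 had a positive slope (Cdh5 and Tek) beside 9.19% of all genes. The slope of Cdh5 was 0.09 per doubling of day + 1 (SE 0.04, limma adjusted p 0.436). For Kdr it was 0.12 (SE 0.05, limma adjusted p 0.474).

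Among the reloaded days d1 to d14, 19 genes rose and 24 fell by the same fit, 0.157% and 0.198%, and 0 of the 10 genes were among them. With any 1 of these 6 days left out, 0 genes rose and at most 3 fell. Apln had the steepest slope of the 10 at -0.34 (SE 0.09, unadjusted p 0.00605, limma adjusted p 0.172). Tek had a slope of 0.07 (SE 0.02, unadjusted p 0.0202, limma adjusted p 0.268), and these 2 genes were the only ones of the 10 at an unadjusted p of 0.05, beside 6.88% of all genes with a positive and 6.39% with a negative slope. For the other 8 the limma adjusted p lay between 0.687 and 0.988. A curved course with a linear and a quadratic term was called for 0 genes over the 7 arrays (29 without d0 and 7 without d1), with 14.3% at an unadjusted p of 0.05. The 10 genes included 4 of those (Vegfa, Aplnr, Cdh5 and Kdr), and the limma adjusted p was 0.195 for Vegfa and 0.218 for Aplnr.

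Other genes of the same signals were mostly above d0 by less. Of 13 listed ligands, receptors and adaptors, 10 passed the filter, and their medians ran from 0.03 at d5 to 0.22 at d10. Nrp1, the VEGF co-receptor neuropilin-1, stood between 0.37 and 0.65 and was past 1.5-fold at d10, when 2.28% of genes were. Flt4, the receptor of lymphatic endothelium, was at 104.4 at d0 and between 152.2 and 153.9 later, ratios of 0.54 to 0.56; it too reached the array median on the later days alone. Tie1, the partner of Tek, had its lowest later ratio at d5 (0.04) and its highest at d3 (0.38), as Flt1 did. The co-receptor Nrp2 lay between 0.21 and 0.32, and 0 of the 10 kept were lower by 1.5-fold on any day. Vegfc, Angpt4 and Apela did not pass the filter. Of these Apela was at 68 at d0 and between 24 and 27.9 later, ratios of -1.50 to -1.29. It lay far below the array median throughout, and whether it stood above background was not measured.

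Markers of endothelium beyond the 10 genes numbered 29, all kept by the filter. At d3 all 29 were above d0, with a median of 0.27, against 65.5% of all kept genes. The medians were 0.25, 0.27, 0.13, 0.25, 0.20 and 0.19 from d1 to d14, and d5 was again the lowest. Past 1.5-fold on 1 or more days were 3 of the 29, Myct1, Cd93 and Clec14a, beside 6.24% of all kept genes, so this count is near the background. Clec14a was called at d10 (0.61), the one array on which it reached the array median and so passed the filter. Cd93, a surface lectin of endothelium, was at 0.82 at d1 and 0.45 at d14, and Myct1 between 0.57 and 0.79. The transcription factor Sox7 stood at 0.55 at d3. The d0 array was the lowest for 23 of the 29 (79.3%), beside 39.0% of all kept genes. It was also the lowest for 3 of 3 adipocyte, 4 of 5 platelet and 6 of 8 neutrophil markers. S100a8, Retnlg, Camp and Ltf of the neutrophil list were below the array median at d0 and passed the filter through later days. Their low d0 is thus tied to the filter. In other lists d0 was the lowest for 6 of 11 mural, 3 of 6 fibroblast and 3 of 9 macrophage markers. It was the lowest for 1 of 2 red cell, 1 of 3 lymphatic and 1 of 3 Schwann cell markers. A low d0 was thus found in some lists of other cells and not in all. By the limma fits 0 of the 29 endothelial markers passed. Of all kept genes 0 passed for the d0 to d14 slope and 0 for the curved course. For the d1 to d14 slope 0.157% rose and 0.198% fell. The count of the 29 is thus near the background and does not show that they were unchanged.

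Genes of sprouting tip cells had a median of 0.31 at d1 over the 7 of 10 that were kept. Rgcc, a cell cycle regulator of endothelium, was at 325.3 at d0, then 978.8 (d1), 530.9 (d3) and 393.9 (d14), ratios of 1.59, 0.71 and 0.28. It shared its highest array with Apln, which tip cells make, and so did Ednrb and Pdgfb, both at 0.42 at d1. Nid2 stood at 0.31, Dll4 at 0.23, Unc5b at 0.06 and Cxcr4 at -0.12 at d1. Dll4 and Unc5b were highest at d7, and Nid2 and Cxcr4 at d10. Rgcc was the 1 of 7 past 1.5-fold on any later day, beside 6.24% of all kept genes. Of the Notch genes, Nrarp, a target and inhibitor of Notch, was between 0.72 and 0.90 on all 6 days, and Hes1 and Hey1 were at 0.33 and 0.31 at d10. Nrarp was below the array median at d0 (111) and passed the filter through the later days. The other 9 of the 10 Notch genes kept were under 1.5-fold, and 1 of 10 is near the 6.24% of all kept genes that were higher on any later day.

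Hypoxia genes and known regulators of Vegfa were near d0 as a group, with medians between -0.02 and 0.02 over 17 genes. Pfkfb3, an activator of glycolysis, was lower on all 6 days (-0.92 at d3 to -0.63 at d10); at least 1.5-fold lower were 0.843% of genes at d3 and 0.826% at d10. P4ha1, a collagen prolyl hydroxylase, was at 0.73 at d1 and at 0.38 to 0.44 later. Epas1 stood at 0.27 and Pgk1 at 0.30 at d7. At d1 Egln3, a HIF prolyl hydroxylase named after its values were seen, was past 1.5-fold at 1.07 and lay between -0.20 and 0.26 afterwards. Of the 7 inhibitors of angiogenesis on the array, Adamts1 and Thbs1 were past 1.5-fold at d1 (0.70 and 0.60), when 3.45% of all kept genes were, P4ha1 and Egln3 among them. The median of these inhibitors at d1 was 0, with Cxcl10 at -0.15, Serpinf1 at -0.14, Timp3 at -0.07, Thbs2 at 0 and Col18a1 at 0.28. Timp3 and Cxcl10 were below d0 on all 6 days. At d10 Serpinf1 was at 0.34 and Col18a1 at 0.28.

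**Figure D3:**
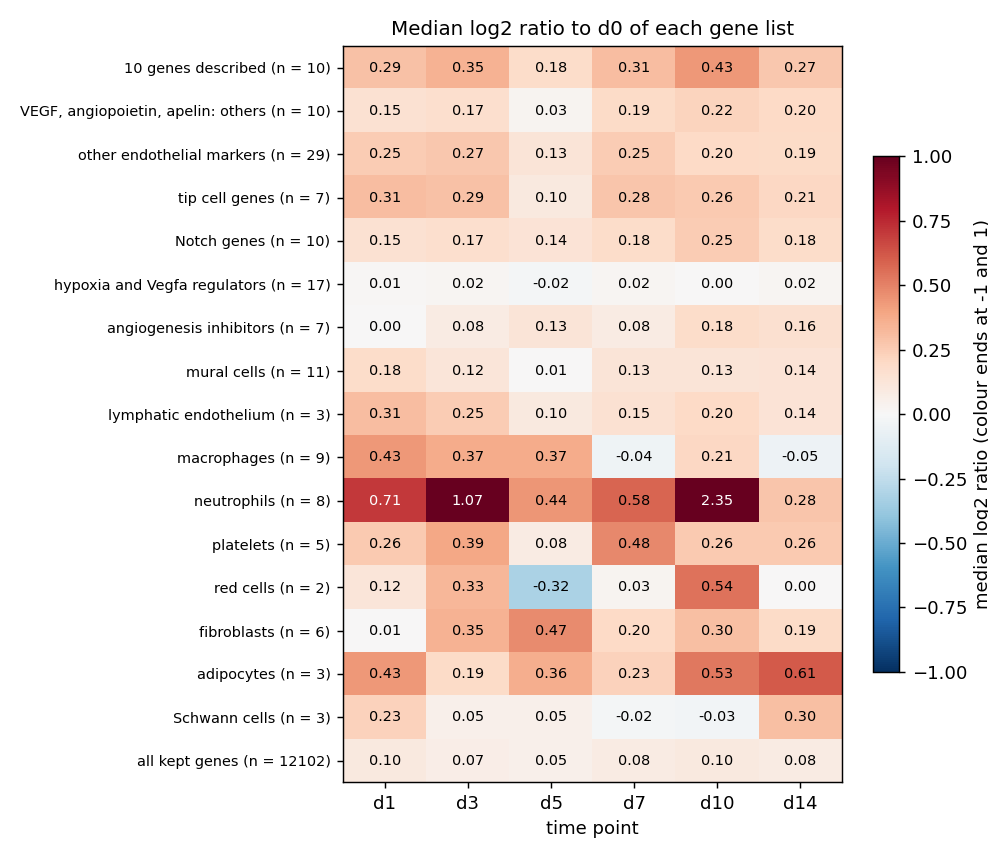
Median log2 ratio to d0 of the kept genes of each list (rows, n in brackets) at each later day (columns), with all kept genes in the last row; red is above and blue below d0. The row of the 10 genes runs from 0.18 at d5 to 0.43 at d10, the row of hypoxia genes from -0.02 to 0.02, and the neutrophil row reaches 2.35 at d10.

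Markers of other cells were set beside these values. Mural cells, the pericytes and smooth muscle around vessels, had medians between 0.01 (d5) and 0.18 (d1). Their summed intensity over 12 markers lay between 10532 at d5 and 11558 at d10, with 10717 at d0. At d1, 10 of the 11 kept markers were above d0. Cnn1 was at 0.46, Tagln at 0.33 and Myh11 at 0.32, with Abcc9 at 0.05 and Rgs5 at -0.06. Cnn1 reached the array median at d1 and d10 only, so its high ratio at d1 is tied to the filter. Lymphatic markers kept by the filter were only 3, Lyve1 at 0.77, Pdpn at 0.31 and Reln at 0.14 at d1.

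Platelets and leukocytes also carry Pecam1. The 5 platelet markers had medians of 0.08 (d5) to 0.48 (d7), and a summed intensity from 2452 at d0 to 4210 at d3. At d7 Ppbp was at 0.68, Itga2b at 0.60, Gp5 at 0.48, Gp9 at 0.20 and Pf4 at 0.06. Gp5 reached the array median at d3 and d7 only, so its high ratio at d7 is tied to the filter. Gp9 was at -0.33 at d5. For macrophage markers the median was 0.43 at d1 but -0.05 at d14. Of that list Cd68 was at 2.04, C1qc at 0.63 and Ctss at 0.59 at d1, and the sum over 10 markers went from 3725 at d14 to 6310 at d1. Neutrophil markers reached a median of 2.35 at d10, with Ngp at 3.46, S100a8 at 3.16 and Lcn2 at 2.83, and a sum over 9 markers of 8403 against 1278 at d0, where 3 of the 9 reached the array median. At d10 Pecam1 stood at 0.43, beside 0.34 at d7 and 0.35 at d14. The part of these cells in the ratios of Pecam1 and Angpt1 was not tested.

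The remaining markers are given without a comparison of their courses with those of the 10 genes. Fibroblast medians were highest at d5 (0.47), with Col1a1 at 1.01, Lum at 0.98 and Col3a1 at 0.83. The other 3 of the 6 fibroblast markers were Dpt at 0.12, Pdgfra at -0.14 and Dcn at -0.23 at d5, and Pdgfra and Dcn were below d0 on all 6 days. The summed intensity of the 6 was 14637 at d5 and 14940 at d0. Adipocyte medians were above d0 on all 6 days and highest at d14 (0.61), with Retn at 0.67, Adipoq at 0.61 and Plin1 at 0.44. Of the red cell markers, Slc4a1 was at 301.6 at d0 and 716.6 at d10, and Alas2 had a ratio of -0.18 at d10. Schwann cell markers had medians of at most 0.30, at d14, with S100b at 0.38, Mbp at 0.30 and Sox10 at 0.06.

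For the 3 genes with the widest ranges, the kept genes whose courses were most alike were sought by Pearson's r over the 7 arrays, as a description. The courses most like that of Apln were those of Pstpip2 and Zfp697 (r = 0.994 each) and Nsun2 (0.991). All 3 were highest at d1, with ratios of 0.32, 0.62 and 0.43. That day follows from the search, because Apln itself stood apart at d1 alone. Zfp697 reached the array median at d1 only and so passed the filter through that array. Those most like Aplnr were Podn (0.982), Smad3 (0.979) and Plp2 (0.976), with d3 ratios of 0.44, 0.22 and 0.51. Those most like Kdr were Znhit3 (0.996), Gtf2h3 (0.993) and Rbm15 (0.993), whose ranges were 0.43, 0.41 and 0.08. These genes are the extremes of a search over 12102 genes with 7 arrays each, and a high r does not mean an equal size of change.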

How the data were processed

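RNA of the left plantaris was measured on 7 arrays, 1 per time point, each with RNA pooled from 6 animals, per the labels' protocols and the design text. The authors deposited a linear intensity for each transcript cluster on each array. The submitters' processing notes name Partek without a version or step. How arrays were normalized, background corrected and probes summarized, and on which build, is not given in the sources used here. Arrays give no read depth, and their number limits the precision.

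The log2 of each intensity was used, with no pseudocount. Among 35556 rows, 21789 had 1 gene symbol in the platform annotation, 1621 had several and 12146 are unnamed here. A gene was represented by its row of highest mean and kept when its intensity on 1 or more arrays was at or above that array's median (12102 genes). Slopes on log2(day + 1), over d0 to d14 and over d1 to d14, and a quadratic course were fitted in R 4.3.3 by limma 3.58.1 (lmFit, eBayes with an intensity trend, two-sided, Benjamini-Hochberg over all kept genes at 0.05). In these fits the spread between pools of different days, and any departure from the fitted curve, is the error. In simulated data of 12102 genes with independent noise, the d0 to d14 slope recovered 72.0% of changes of 0.5 and 92.0% of changes of 1 on the log2 scale. The d1 to d14 slope recovered 42.0% and 80.0%, and the quadratic course 48.0% and 84.0%. Recovery of a gene that differs on 1 day alone was not tested. Between pairs of arrays, the robust SD of gene differences ran from 0.09 (d5 against d14) to 0.19 (d1 against d7). For pairs with d0 this SD ran from 0.13 (d14) to 0.18 (d1). For pairs among d3, d5, d7 and d14 it ran from 0.09 (d5 against d14) to 0.12 (d5 against d7). Whether the noise used here matched that of each array, d0 included, was not tested. Tables and plots were made in Python 3.11.15 with numpy 2.4.6, pandas 2.3.3 and matplotlib 3.10.9.

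All 10 members were named, with up to 4 genes of each pathway list and 3 of each marker list. These were the genes farthest from d0 on the day the list median was farthest from 0. Further listed genes were named outside this rule, among them Egln3, Clec14a, Apela, Dll4, Cxcl10, Gp9, Rgs5 and Dcn. The 3 genes most alike in course were named for the 3 members of widest range, leaving out predicted genes, clones, receptor families of smell and small RNAs. The 10 genes and the 15 lists were chosen with earlier results of these data known. Some of the listed genes are not reported here. Alternatives were other references, normalizations, filters, pseudocounts, thresholds, scales of the day, and each time point left out.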

Additional observations from a re-analysis of the deposited data

How the results depend on the processing

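The choice of d0 as the reference decides most of the ratios. Against d14 the medians of the 10 genes were 0.04, 0.07, -0.03, 0.03 and 0.06 at d1, d3, d5, d7 and d10, and Kdr stood at -0.11 at d3, -0.02 at d5 and -0.0014 at d10, on the other side of 0. Against the mean of the 6 other arrays the medians were 0.05, 0.04, -0.03, 0.05, 0.10 and 0.02 from d1 to d14. With either reference 1 gene (Apln at d1) was past 1.5-fold in place of 3. With the threshold lowered to 25% above d0, 7 genes were higher, and at a 2-fold threshold 0. A filter at percentile 75 left 8 of the 10 genes and moved the d5 median to 0.30; the 2 genes it dropped are the dim ligands. Median ratios under the other normalizations, the pseudocount of 16 and no filter stayed within 0.11 of those reported, the robust SD of gene differences between d7 and d14. The d0 array was lowest for 7 of the 10 genes under each normalization and filter tried for it. By the limma fits, 0 of the 10 genes passed under any alternative, time points left out included.

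Over all genes the counts of the fits were less stable. Of d0 to d14 slopes, 1 gene rose with a filter at percentile 75 and 1 with equal array medians; leaving out 1 time point gave 0 to 19 that rose and 0 to 24 that fell, the upper ends without d0. Of d1 to d14 slopes, 0 rose and 3 fell with no filter, 93 and 69 with a filter at percentile 75, 75 and 66 after quantile normalization, and 31 rose with equal array medians. There 0 and 0 rose and fell on linear days, 0 and 1 on ranks of the day and 0 and 4 without an intensity trend. Without any 1 time point 0 rose and 0 to 3 fell. The curved course was called for 10 genes with a filter at percentile 75, 3 with equal array medians and 0 to 29 with 1 time point left out (29 without d0, 7 without d1). The cause of these shifts was not tested. No paired analysis was possible because each group has 1 sample.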
